A study of Mus musculus with 12 samples.

Results

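Among the genes of mouse quadriceps that are not marked as protein coding, 62 stood apart in the libraries of PBS-injected GAA knock-out mice (KO), with all 4 values above or all 4 below those of 8 libraries from wild-type mice (WT) and from knock-out mice given gene therapy (AAV). These 62 genes were selected on the measured values themselves. A member was not marked as coding and reached a normalized count of 10 in at least 1 library. Its 4 KO values did not overlap the other 8, and the KO mean differed from the mean of the other 8 by at least 2 on the scale of log2(normalized count + 1). H19, Meg3, Rian and BC002163 were left out by name. Of 15344 genes in the tables, 1533 were not marked as coding and 1451 of these reached a count of 10. Of the members, 45 were lower and 17 higher in libraries with the label KO. The KO differences below are therefore descriptions of how the members were chosen and carry no test.

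Pompe disease is a glycogen storage disorder caused by loss of GAA, the lysosomal enzyme that breaks down glycogen. Quadriceps mRNA was sequenced (RNA-Seq) from 12 mice on a C57BL/6 background, 4 in each group, all 6 months old. WT mice were age-matched and not treated. KO mice carried the GAA knock-out and received PBS, and AAV mice carried the same knock-out and received AAV2/8-LSPhGAApA by tail vein (2e12 vg/kg) 4 months before harvest. The vector expresses human GAA from a liver-specific promoter, so that muscle is exposed to secreted enzyme rather than to a muscle transgene. A normalized count is the number of reads of a gene divided by the size factor of its library, and total reads per library lay between 22122233 and 47379737.

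Gaa itself (ENSMUSG00000025579, chromosome 11, 119267887 to 119285454 on GRCm38) went against the labels. Its normalized counts were 343, 14640.2, 324 and 460.3 in WT libraries 1 to 4. They were 12151, 13075, 11936 and 12895 in KO libraries 1 to 4, and 947, 587, 499.6 and 9854 in AAV libraries 1 to 4. The libraries labelled KO were thus the highest as a group, and WT library 2 and AAV library 4 lay near them. Every direction below refers to libraries by their labels, and WT, KO and AAV libraries stand for the libraries labelled so. Without WT library 2 and AAV library 4 the rule took 66 genes, of which 60 were among the 62. All 7 skeletal fibre markers were present in the tables and none was at 0 in all libraries, which meets the labelled tissue. Because quadriceps was sequenced in bulk, fewer cells of a type and less RNA per cell cannot be told apart.

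Noncoding genes of this kind arise in several ways. A processed pseudogene is a copy of an mRNA that was reverse transcribed and inserted elsewhere in the genome, so that it has no introns and resembles its source gene closely. An unprocessed pseudogene is a duplicated gene that lost its function and kept its exon structure. Antisense RNAs are transcribed from the strand opposite to a gene, and long intergenic RNAs (lincRNAs) from stretches between genes. In muscle, noncoding RNAs include the miR-133 family, small RNAs known for roles in muscle cell growth and differentiation. The authors kept only reads with a single mapping location. This matters for copies, because a read wholly within a stretch identical in a pseudogene and its source gives no count to either.

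By the GENCODE M21 annotation on GRCm38, which held 61 of the 62, 27 members were pseudogenes (22 of them processed), 15 were antisense RNAs, 6 were lincRNAs and 6 were processed transcripts. A microRNA gene, a sense intronic and a sense overlapping RNA were single members of their types. Another 4 (Gm7879, RP23-58L22.2, Gm13889 and Gm12248) are listed as protein coding in this later annotation. Pseudogenes made up 43.5% of the members and 39.0% of all 1451 noncoding genes at a count of 10 or more, and antisense RNAs 24.2% and 19.4%. Of the 12 pseudogenes annotated as unprocessed among the 1451, 4 were members, and of the 16 annotated as transcribed unprocessed, 1 was. The members lay on 15 chromosomes, with 10 on chromosome 4, 8 each on chromosomes 5 and 11 and 6 on chromosome 7.

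The sequences show how little separates several of these copies from their source genes. The 90-base stretches below come from the coding part of the GENCODE M21 transcripts, 5′ to 3′, and capitals mark the bases that differ between the copy and its source. Gm15920 is a copy of Ndufa12, which encodes a subunit of respiratory complex I, with 2 mismatches over 402 bases. Gm15487 (Atp6v0c-ps2) is a copy of Atp6v0c, which encodes the proteolipid subunit of the vacuolar proton pump that acidifies lysosomes, with 1 mismatch over 465 bases. Rps13-ps1 is a copy of Rps13, a protein of the small ribosomal subunit, with 2 mismatches over 522 bases. RP24-547D11.4 (Hmgb1-ps8) is a copy of Hmgb1, a chromatin protein, with 22 mismatches over 623 aligned bases.
Gm15920: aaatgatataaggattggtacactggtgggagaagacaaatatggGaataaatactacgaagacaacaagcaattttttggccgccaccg
Ndufa12: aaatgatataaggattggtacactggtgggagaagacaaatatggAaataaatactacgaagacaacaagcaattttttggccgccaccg
Gm15487: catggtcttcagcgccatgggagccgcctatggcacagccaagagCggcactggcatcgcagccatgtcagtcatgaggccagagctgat
Atp6v0c: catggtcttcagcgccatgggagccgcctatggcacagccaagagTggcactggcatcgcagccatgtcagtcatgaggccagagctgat
Rps13-ps1: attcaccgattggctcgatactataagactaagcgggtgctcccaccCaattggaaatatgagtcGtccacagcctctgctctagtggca
Rps13: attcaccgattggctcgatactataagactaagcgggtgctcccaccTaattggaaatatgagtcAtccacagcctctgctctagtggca
RP24-547D11.4: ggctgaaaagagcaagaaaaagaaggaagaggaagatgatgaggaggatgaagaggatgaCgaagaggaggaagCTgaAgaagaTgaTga
Hmgb1: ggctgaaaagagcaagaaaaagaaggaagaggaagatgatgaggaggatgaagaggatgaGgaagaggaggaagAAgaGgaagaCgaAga

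Of the 27 pseudogenes, 25 matched a coding transcript (80% identity or more, 50% of the length or more), and identity lay between 87.3% and 100% (median 98.1%). A median of 49.6% of their 50-base words was found in no other annotated gene, against 99.9% for the other members. Lowest among those other members were Mir133b (0%), A930015D03Rik (10.1%), Gm7879 (23.6%) and AC163629.1 (55.2%). Among the pseudogenes, this share was 0% for Gm12751, which is identical to part of Polr1d, for Rps13-ps2, which is identical to part of Rps13, and for Gm12282. It was 9.86% for Gm15487, 12.1% for Rps13-ps1, 21.2% for Gm15920 and 78.2% for RP24-547D11.4. Counts were recorded even for genes at 0%, and where in or around these genes their reads lay was not tested.

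The rule took 64 of the 1451 noncoding genes (4.41%) before the named genes were left out, and 240 of 13703 coding genes (1.75%). Values that did not overlap between the KO libraries and the other 8, whatever the size of the difference, were found for 9.99% of the noncoding and 13.2% of the coding genes. With the WT libraries set apart in place of KO the same rule took 14 noncoding genes, and with the AAV libraries set apart it took 3. The median difference of the KO mean from the mean of the other 8 was −3.61 (log2) for the 45 lower members and 3.01 for the 17 higher members. For 5 of the lower members all KO libraries were at 0, and for 2 of the higher members all WT and AAV libraries were at 0. With these at the bound that 3 reads over the low group would give, the medians were −3.69 and 3.18. Beside the threshold of 2, the members closest to it were Gm12057 (−2.01), Gm15704 (2.02) and Gm12925 (−2.06), and the noncoding genes just outside were AC027184.1 (1.99), C230035I16Rik (−1.95) and 2410137F16Rik (−1.95).

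**Figure D1:**
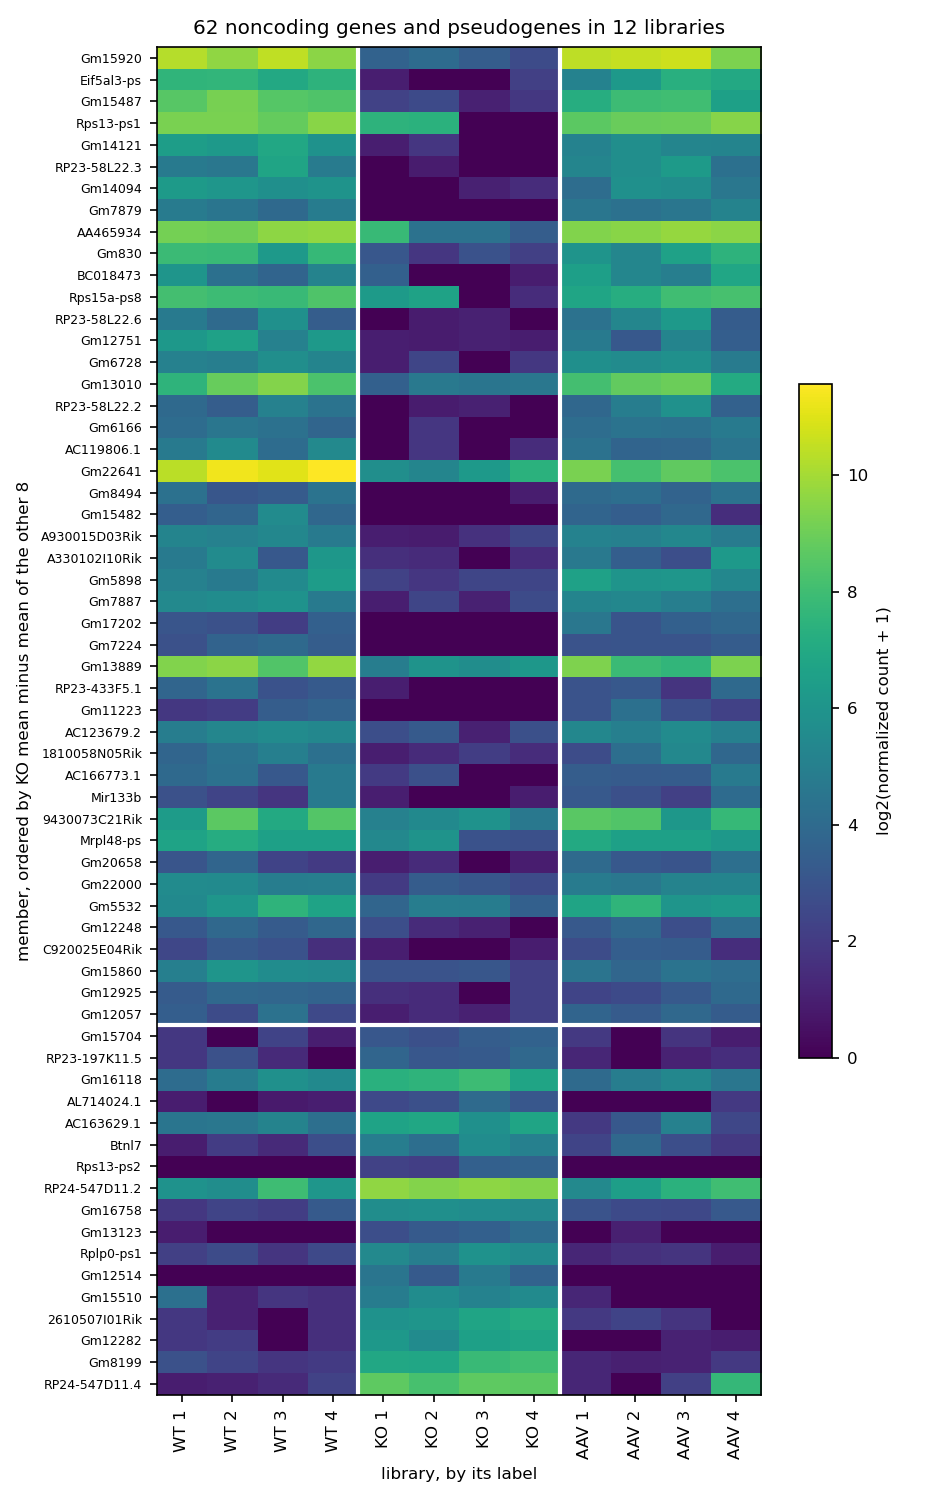
Heat map of log2(normalized count + 1) of the 62 members (one a line, ordered by the KO mean minus the mean of the other 8) in the 12 libraries by label. White lines part the groups and the 45 lower from the 17 higher members, and AAV library 4 shows a high value of RP24-547D11.4 (206) that the other AAV libraries do not have.

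The widest difference on the scale of log2(count + 1) was that of Gm15920 (ENSMUSG00000080893, chromosome 5, 130188395 to 130188796, a single exon inside an intron of Rabgef1). Its normalized counts were 1251, 815, 1400.1 and 750.0 in WT libraries 1 to 4 and 1353, 1510.2, 1655 and 624 in AAV libraries 1 to 4. In KO libraries 1 to 4 they were 11.6, 15.4, 9.79 and 5.305, a mean of 10.5 ± 4.19 (SD, n = 4) against 1170 ± 386 in the other 8. The 2 sets were far from overlapping, and the KO mean was 111-fold lower. Per kilobase of exon, Gm15920 also had the highest mean level of the members with a length, 1949 normalized counts per kb over the 12 libraries. Its source gene Ndufa12 lay between 1737 and 3379 in WT, 2263 and 2882 in KO and 2203 and 2627 in AAV libraries, with a KO minus WT difference of 0.09 ± 0.20 (SE, log2) that was not called (adjusted p = 0.759, limma). The copy made up 19.4 to 41.9% of the summed counts of copy and source in WT libraries, 20.5 to 42.9% in AAV libraries and 0.208 to 0.531% in KO libraries.

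Gm15487 and its source Atp6v0c moved in opposite directions. Gm15487 (ENSMUSG00000080242, chromosome 6, 37806086 to 37806550) had counts of 375, 584, 369 and 331 in WT libraries, 147, 243, 257 and 94.5 in AAV libraries and 3.86, 5.13, 1.09 and 2.65 in KO libraries 1 to 4. Atp6v0c had counts of 28.1, 38.3, 13.0 and 33.2 in WT libraries, 345, 425, 393 and 454 in KO libraries and 27.6, 38.3, 31.9 and 194 in AAV libraries. Copy and source exchanged places between WT and KO, and AAV library 4 had the highest Atp6v0c and the lowest Gm15487 value of its group. Atp6v0c rose by 3.89 ± 0.30 (SE, log2) from WT to KO (adjusted p = 8.57e-05, limma) and fell by 2.96 ± 0.52 from KO to AAV (adjusted p = 0.00608, limma). The sum of both was 443 ± 121 in WT, 407 ± 46.9 in KO and 258 ± 55.7 (SD, n = 4 each) in AAV libraries. The copy made up 90.9 to 96.6% of this sum in WT libraries and 0.276 to 1.19% in KO libraries. In AAV library 4 its share was 32.8%, against 84.3 to 89.0% in the other 3 AAV libraries. The part that the sharing of reads between near-identical copies has in these values was not tested.

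Rps13-ps1 (ENSMUSG00000066362, chromosome 8, 87047689 to 87048226) split the KO libraries. Its counts were 607, 611, 449.6 and 736 in WT libraries and 407, 480.2, 495 and 718 in AAV libraries. They were 176 and 166 in KO libraries 1 and 2 and 0 in KO libraries 3 and 4. The KO values thus fell into a reduced pair and a pair at 0, a range of 7.47 on the log2 scale. Rps15a-ps8, a copy of the ribosomal protein gene Rps15a, showed the same pattern with 77.3 and 100.1 in KO libraries 1 and 2 and 0 and 1.77 in KO libraries 3 and 4, against 227 to 334 in WT and 110 to 296 in AAV libraries. Mrpl48-ps, a copy of the mitochondrial ribosomal protein gene Mrpl48, was at 41.5 and 60.7 in the first and at 6.53 and 6.19 in the second pair, against 94.6 to 144 in WT and 70.7 to 130 in AAV libraries. In both, KO library 2 lay close to the lowest AAV library, with gaps of 0.14 (Rps15a-ps8) and 0.22 (Mrpl48-ps) on the log2 scale. Among the 45 lower members, 12 had KO values that spanned at least 2 on the log2 scale, and none of the 17 higher members did. The sources Rps15a (difference −0.18 ± 0.13, SE, log2) and Mrpl48 (−0.13 ± 0.19) were not called between KO and WT. Rps13 itself had a mean of at most 6.73 in any group and, below the minimum of 10 in all of these libraries, was not tested. Rps13-ps1 made up 98.6 to 99.3% of the sum of copy and source in WT libraries and 98.6 to 99.6% in AAV libraries. Copy and source have 2 mismatches over 522 bases. The part that the sharing of reads between them has in these values, including those at 0, was not tested.

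Eif5al3-ps, a copy of the translation factor gene Eif5a, had counts between 127 and 195 in WT libraries, between 34.5 and 156 in AAV libraries and of 0.966, 0, 0 and 3.54 in KO libraries. Among the lower members its difference of −6.12 was second to that of Gm15920 on the scale of log2(count + 1), and its ratio of means, 119.5-fold, was the larger of these 2. Gm14121, a copy of Btbd1, lay at 58.5 to 123 in WT, 34.5 to 51.3 in AAV and 0 to 2.57 in KO libraries. Gm14094, a copy of the ribosomal protein gene Rpl15, lay at 52.8 to 78.7, 16.5 to 54.4 and 0 to 1.77 in the same order. Gm12751, the copy identical to part of the RNA polymerase subunit gene Polr1d, had 0.855 to 1.09 in KO libraries, about 1 read each, against 33.3 to 97.8 in WT and 8.05 to 36.6 in AAV libraries. The remaining lower processed pseudogenes with a tested source were Gm6728 (source Coq2), Gm6166 (Fabp5), Gm8494 (Smarce1), Gm5898 (Thrap3), Gm7887 (Pcnp) and Gm12057 (Metap2), with KO means of at most 3.8. Gm11223, a copy of Stmn1, was at 0 in all KO libraries and between 2.71 and 18.1 elsewhere, a level at least 10.9-fold higher than the bound of 3 reads over the KO libraries.

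Of 6 higher processed pseudogenes, RP24-547D11.4 had the largest difference of log2(count + 1) means (6.47). It had 0.905, 1.06, 1.62 and 3.90 in WT libraries, 413, 295, 417 and 405 in KO libraries and 1.38, 0, 3.54 and 206 in AAV libraries 1 to 4. AAV library 4 alone among the 8 others was near the KO libraries. Its source Hmgb1 lay between 153 and 391 in all 12 libraries, with a KO minus WT difference of 0.19 ± 0.28 (SE, log2, adjusted p = 0.628, limma). Gm8199 and Rplp0-ps1 are both copies of Rplp0, which encodes the ribosomal stalk protein P0. Gm8199 rose from 2.43 to 6.33 in WT and at most 2.75 in AAV libraries to 123, 115, 225 and 256 in KO libraries. Rplp0-ps1 had 3.62, 5.3152, 2.43 and 4.88 in WT libraries, at most 2.36 in AAV libraries and, in KO libraries 1 to 4, 42.5, 29.9, 58.7 and 46.9. Rplp0 itself fell from 8645 to 11933 in WT libraries to 5393, 5292, 2770.3 and 3076 in KO libraries, a difference of −1.32 ± 0.23 (SE, log2, adjusted p = 0.0044, limma). The KO means of the copies were 179 ± 71.4 and 44.5 ± 11.9 (SD, n = 4), and they made up 2.1 to 7.7% and 0.562 to 2.08% of the sum with Rplp0 in KO libraries.

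Gm12282 (Wsb2-ps) rose from at most 3.19 in the 8 other libraries to 71.5, 46.2, 94.6 and 106 in KO libraries, 64.0-fold by the means. Its source Wsb2, a ubiquitin ligase adaptor, had a KO minus WT difference of −0.84 ± 0.16 (SE, log2), short of the fold threshold of 1 (adjusted p = 0.00673, limma). Gm13123, a copy of Gcn1l1, had 5.80 to 15.9 in KO libraries and a single read in WT library 1 and in AAV library 2. Rps13-ps2 had 3.86, 3.42, 10.9 and 11.5 in KO libraries and 0 in all other libraries, at least 19.2-fold higher than the bound of 3 reads over those 8. Among the 20 tested source genes of member pseudogenes, 2 (10%) were called between KO and WT, Atp6v0c upwards and Rplp0 downwards, against 13.6% of the coding genes tested. Their median KO minus WT difference was 0.07 (log2), beside 0.02 over all genes tested. Calls of source genes, and of all genes named hereafter, needed both an adjusted p below 0.05 and a log2 difference of 1 or more in size.

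**Figure D2:**
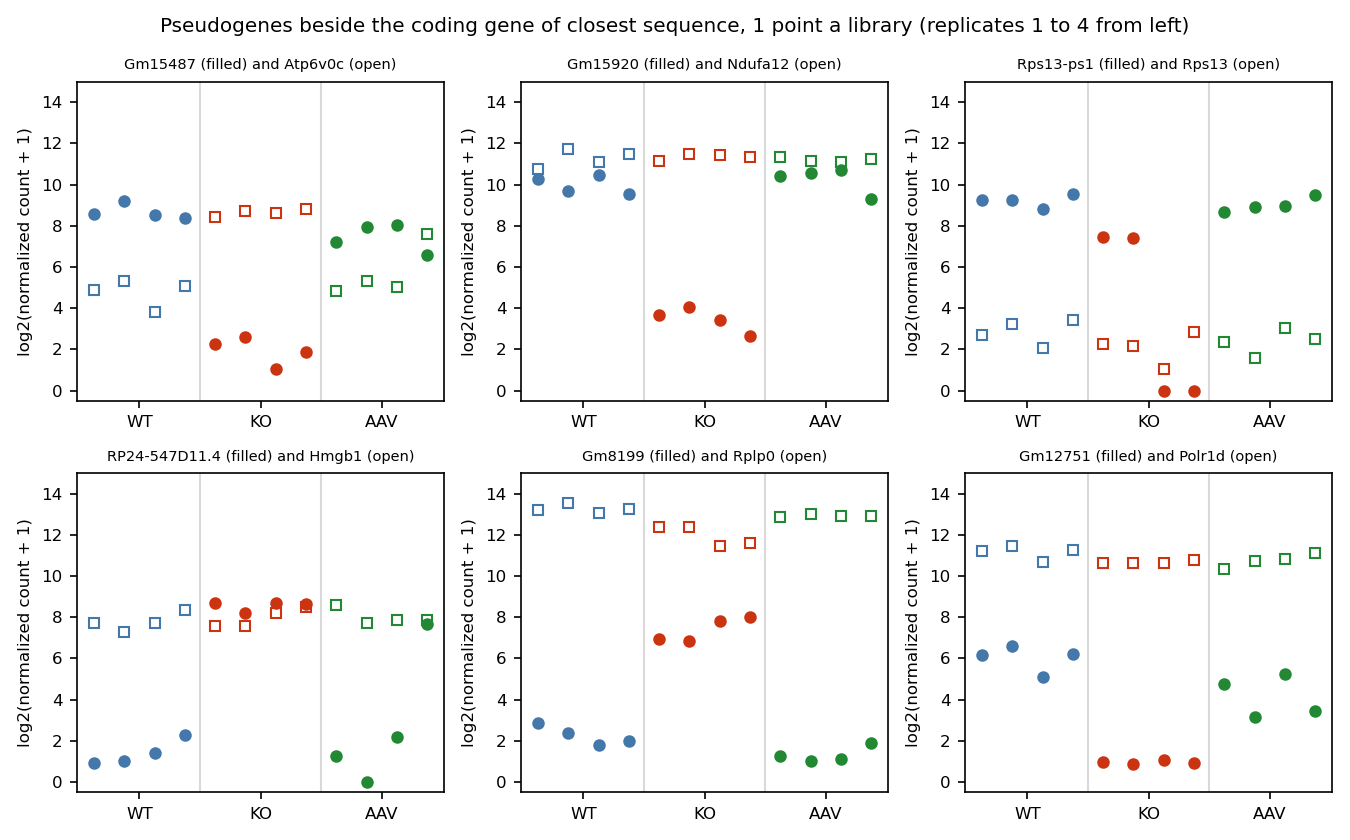
Normalized counts of 6 pseudogenes (filled circles) and their source genes (open squares) on a log2(count + 1) axis, 1 point a library, in WT, KO and AAV libraries 1 to 4 from left to right. Gm15487 and Atp6v0c exchange places in the KO libraries, Rps13-ps1 parts KO libraries 1 and 2 from 3 and 4, and Ndufa12 and Hmgb1 stay level while their copies do not.

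The unprocessed pseudogenes were fewer. Btnl7, annotated as a pseudogene of the butyrophilin-like family, which belongs to the B7-related surface proteins, had 29.0, 17.1, 47.9 and 31.8 in KO libraries, 0.905 to 5.85 in WT and 2.75 to 14.1 in AAV libraries. Gm7224, related to Fbxo34, was at 0 in all KO libraries and at 6.33 to 14.6 in the others. C920025E04Rik (H2-T-ps), a relic of a class Ib gene of the major histocompatibility complex on chromosome 17, had at most 0.966 in KO libraries and 1.84 to 10.1 in the others. The groups in Gm7224 and C920025E04Rik were apart but rested on few reads.

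A stretch of chromosome 10 between 22074237 and 22302835 held 5 members that went in opposite directions. RP23-58L22.3 and RP23-58L22.6 are unprocessed pseudogenes and RP23-58L22.2 (E030030I06Rik) is on the other strand, where it overlaps an exon of RP23-58L22.6, so that reads of this overlap may not be told apart. RP23-58L22.3 had 26.2, 23.4, 106 and 27.3 in WT, 37.2, 52.4, 79.1 and 18.4 in AAV and 0, 0.855, 0 and 0 in KO libraries. RP23-58L22.6 reached 54.4 in WT and 73.2 in AAV libraries and RP23-58L22.2 reached 32.5 and 56.7, and both had at most 1.09 in KO libraries. WT library 3 and AAV library 3 were the highest of their groups for all 3 genes. From 37742 bases further on, the antisense RNA RP24-547D11.2 (Gm26740) was higher in KO libraries, with 813, 687, 789.7 and 692 against 49.96 to 253 in WT and 42.7 to 256 in AAV libraries. RP24-547D11.4 lies within the span of RP24-547D11.2 on the same strand, between its annotated exons, and all 50-base words of the RP24-547D11.2 transcript were found in no other annotated gene. The 3 lower and 2 higher members did not overlap with the other 8 libraries in any KO library, which the rule required.

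**Figure D3:**
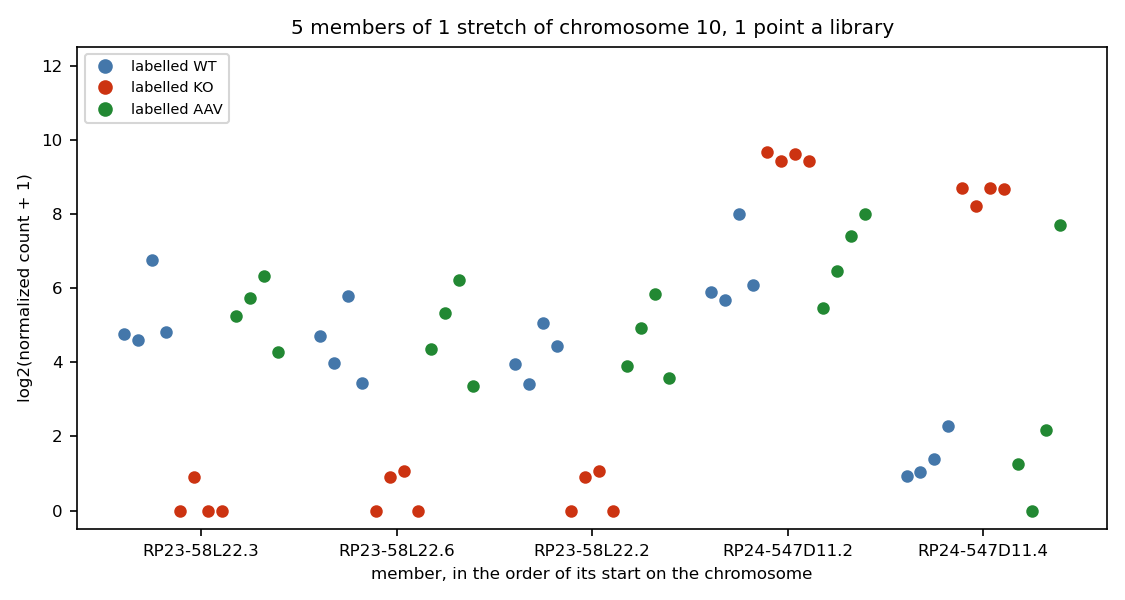
Values of 5 members of chromosome 10 as log2(normalized count + 1), 1 point a library, WT in blue, KO in red and AAV in green, members in the order of their start. The KO libraries are at the bottom for the first 3 genes (at most 1.09) and at the top for the last 2 (at least 295), and the AAV point near the KO points of RP24-547D11.4 is AAV library 4.

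Other members also lay within 1 Mb of each other. On chromosome 17, AC163629.1 and Gm16758 (398158 bases apart) were both higher, and A930015D03Rik and C920025E04Rik (70798 bases apart) were both lower in KO libraries. On chromosome 4, Gm13010 and 1810058N05Rik (258583 bases apart) were both lower, and on chromosome 8 so were Rps13-ps1 and RP23-433F5.1 (412242 bases apart). Gm16758 had KO values of 49.3, 53.9, 48.9 and 42.4, against 2.71 to 8.78 in the other 8 libraries. Gm13010, an antisense RNA, had 185, 465, 692 and 309 in WT, 276, 448, 507 and 133 in AAV and 10.6, 24.8, 21.8 and 23.0 in KO libraries.

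Antisense members were compared with the coding genes they overlap. Across all members, 38 coding genes overlapped a member or lay within 10 kb and were tested, beside 24 members, and 27 of them lay on the opposite strand. Between KO and WT 8 of the 38 (21.1%) were called, 1 higher and 7 lower, against 13.6% of coding genes tested. Without WT library 4 only 4 were called. The median difference of the 38 was 0.06 (log2), beside 0.02 over all genes tested. Of these 8, 6 went in the direction of their member and 2 in the other direction, and among all 38 pairs the sign of the difference was shared in 19. Whether the counting used the strand of the reads is not given in the sources used here, so that reads of overlapping exons may not be told apart between a gene and its antisense partner.

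Gm22000 lies antisense to Myl4, the embryonic and atrial essential light chain of myosin, on chromosome 11 (104557922 to 104565661) with overlapping exons. Gm22000 had 47.1, 45.7, 29.2 and 30.2 in WT, 2.90, 9.41, 7.61 and 5.305 in KO and 27.6, 23.2, 35.4 and 35.8 in AAV libraries. Myl4 had 1174, 1634, 298 and 1744 in WT, 98.6, 109, 75.1 and 153 in KO and 809, 802, 191 and 1043 in AAV libraries. Myl4 fell by 3.23 ± 0.50 (SE, log2) from WT to KO (adjusted p = 0.00277, limma) and was 2.50 ± 0.47 higher in AAV than in KO (adjusted p = 0.0077, limma). WT library 3 and AAV library 3 were the lowest of their groups for Myl4, while the Gm22000 values of these 2 libraries (29.2 and 35.4) lay close to others of their groups.

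9430073C21Rik lies between the fast myosin heavy chain genes Myh2 and Myh1 on chromosome 11 (67195680 to 67199234). It is antisense to Myh2, with overlapping exons, and lies 817 bases from Myh1, which is on the same strand as Myh2. It had 80.5, 406, 129 and 359 in WT, 32.9, 44.5, 58.7 and 23.9 in KO and 391, 348, 68.5 and 216 in AAV libraries. Myh2, the type 2A myosin, had 7361, 25727, 49032 and 26799.6 in WT, 6101, 11604, 8786 and 2112 in KO and 40833, 72499, 18621 and 14499 in AAV libraries. Myh2 fell by 1.89 ± 0.62 (adjusted p = 0.045) and Myh1, the type 2X myosin, fell by 1.36 ± 0.34 (SE, log2, adjusted p = 0.0182, limma) from WT to KO. The call of Myh2 was lost without WT library 2, 3 or 4 or without KO library 1, 3 or 4 (adjusted p between 0.0527 and 0.106), and that of Myh1 without WT library 4 (adjusted p = 0.0544). The reading of WT library 1 for Myh2 lay among the KO values. All 6 slow fibre markers of the fixed list were lower in KO than in WT libraries, with summed counts of 128 to 200.1 in KO against 1346 to 4644 in WT and 1678 to 21015 in AAV libraries, and their part in the values of these antisense members was not tested.

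A930015D03Rik runs on chromosome 17 (35994453 to 36038435) antisense to the class Ib histocompatibility genes H2-T22, H2-T23 and H2-T24. It had 36.2, 33.0, 40.6 and 25.4 in WT, 0.966, 0.855, 2.18 and 4.42 in KO and 34.5, 32.2, 40.2 and 27.5 in AAV libraries, a difference of −3.61. H2-T24 lay at 91.4, 122, 91.7 and 126 in WT, 13.5, 25.7, 18.5 and 23.0 in KO and 105, 165, 94.5 and 109 in AAV libraries. It fell by 2.38 ± 0.25 (SE, log2) between WT and KO (adjusted p = 0.000489, limma) and rose by 2.50 ± 0.26 between KO and AAV (adjusted p = 0.00064, limma). H2-T23 (−0.59 ± 0.40) and H2-T22 (−0.21 ± 0.16), whose exons A930015D03Rik overlaps in the case of H2-T22, were not called between KO and WT.

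Among the higher members, AC163629.1 lies antisense to Pim1, a serine/threonine kinase gene, with overlapping exons on chromosome 17 (29446919 to 29491925). It had 102, 119.7, 54.4 and 106 in KO, 21.7, 23.4, 34.9 and 17.6 in WT and 2.76, 8.05, 33.1 and 4.59 in AAV libraries. Pim1 had 906, 1706, 271 and 477 in KO libraries, 154 to 261 in WT and 173 to 269 in AAV libraries, and KO library 3 was the lowest of its group for both genes. Pim1 rose by 1.70 ± 0.48 (SE, log2, adjusted p = 0.0272, limma), and the call was lost without WT library 1, 2 or 4 or KO library 1 or 2 (adjusted p between 0.0517 and 0.0758).

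Gm15510 on chromosome 7 (5046949 to 5057116) overlaps the zinc finger gene Zfp580 on the opposite strand, and the pair went in opposite directions. Gm15510 had 28.0, 47.9, 33.7 and 46.0 in KO, 18.1, 1.06, 2.43 and 1.95 in WT and 1.38, 0, 0 and 0 in AAV libraries. WT library 1 was the highest of the other 8 by far. Zfp580 fell by 1.57 ± 0.28 (SE, log2, adjusted p = 0.00483, limma), with 80.4 to 138 in WT libraries and 22.22 to 42.4 in KO libraries, and AAV libraries were at 28.2 to 57.9. 2610507I01Rik, a processed transcript on chromosome 11 that starts near Mrpl55, had 58.0, 65.0, 107 and 139 in KO libraries and 0 to 4.03 in the other 8, 49.5-fold by the means. Mrpl55, 100 bases away, was not called (0.21 ± 0.15), while 2310033P09Rik, 5935 bases away, fell by 1.20 ± 0.25 (SE, log2, adjusted p = 0.00885, limma). Tal2, 2357 bases from Rps15a-ps8, fell by 1.66 ± 0.40 (SE, log2, adjusted p = 0.016, limma), a call that was lost without WT library 4 (adjusted p = 0.0506). Of the same 38 genes, 7 (18.4%) were called between AAV and KO, against 8.30% of coding genes. They were H2-T24, 2310033P09Rik, Myl4, Wdr66, Myh2, Myh1 and Pim1, and Pim1 was the only one that fell. With single libraries left out, 5 to 9 were called. The call of Myh1 was lost without KO library 4 (0.80, below the fold threshold), AAV library 1 or AAV library 2, that of Myh2 without KO library 1 or AAV library 1, and that of Pim1 without KO library 1, 2 or 4 or AAV library 1, 2 or 4. Both comparisons use the KO libraries.

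**Figure D4:**
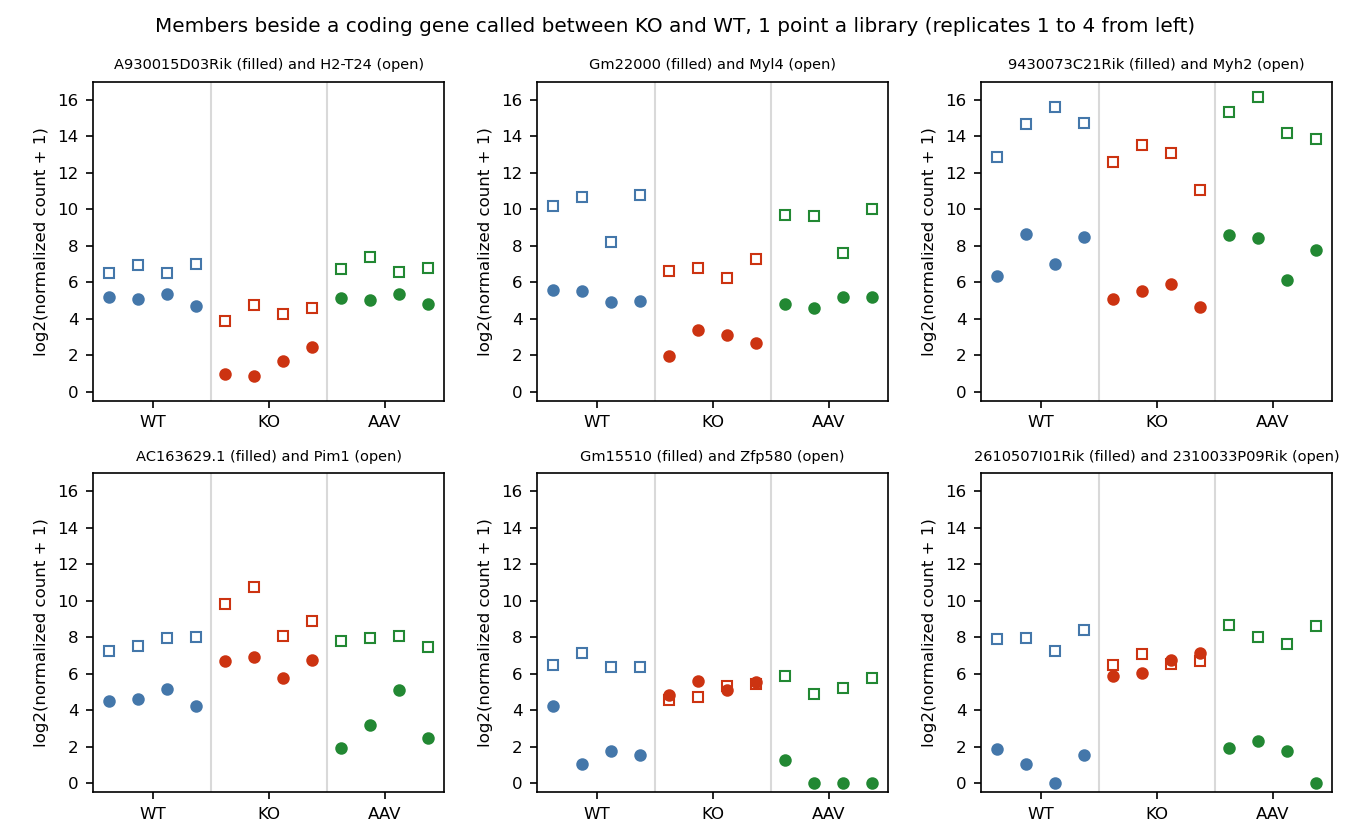
Normalized counts of 6 members (filled circles) and a neighbouring coding gene (open squares) as log2(count + 1), 1 point a library, in WT, KO and AAV libraries 1 to 4 from left to right. In the KO libraries A930015D03Rik, Gm22000 and 9430073C21Rik are low together with H2-T24, Myl4 and Myh2, AC163629.1 and Pim1 are high, and Gm15510 and 2610507I01Rik are high where Zfp580 and 2310033P09Rik are low.

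Other antisense members were BC018473, Gm17202, 1810058N05Rik, Gm20658, Gm15860 and Gm12925, all lower in KO libraries, and Gm16118 and AL714024.1, both higher. BC018473 had 10.6, 0, 0 and 0.884 in KO libraries and 12.2 to 114 in the other 8, so that KO library 1 came near WT library 3. Gm16118, antisense within Wwox, had 159, 185, 240.4 and 109 in KO libraries against 15.2 to 54.4 in the other 8. Wwox (−0.18 ± 0.13) was not called. Gm17202, which overlaps an exon of Ephx4, was at 0 in all KO libraries and at 3.25 to 23.4 elsewhere.

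AA465934, a processed transcript on chromosome 11 (83291699 to 83294632), was among the most abundant members, at 702 normalized counts per kb of exon. It had 567, 539, 774 and 839.7 in WT and 666, 739, 843 and 756 in AAV libraries. In KO libraries it had 218, 19.7, 19.6 and 9.73, so that KO library 1 lay far above the other 3 and below the lowest WT value. The start regions of AA465934 and of 2610507I01Rik are shown because these RNAs had large differences in opposite directions and a RefSeq start at or within 46 bases of the GENCODE start. They run from 250 bases before to 50 bases after the start in RefSeq on GRCm38.p6, at chr11:83291449-83291748 on the plus strand and chr11:59202382-59202681 on the minus strand. Capitals mark the letters CANNTG, the E-box core.
AA465934: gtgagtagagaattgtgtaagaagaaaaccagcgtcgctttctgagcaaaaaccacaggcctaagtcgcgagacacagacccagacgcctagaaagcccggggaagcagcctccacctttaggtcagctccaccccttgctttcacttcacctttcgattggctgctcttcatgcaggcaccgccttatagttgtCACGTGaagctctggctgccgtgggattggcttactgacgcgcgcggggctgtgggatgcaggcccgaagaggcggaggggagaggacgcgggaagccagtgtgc
2610507I01Rik: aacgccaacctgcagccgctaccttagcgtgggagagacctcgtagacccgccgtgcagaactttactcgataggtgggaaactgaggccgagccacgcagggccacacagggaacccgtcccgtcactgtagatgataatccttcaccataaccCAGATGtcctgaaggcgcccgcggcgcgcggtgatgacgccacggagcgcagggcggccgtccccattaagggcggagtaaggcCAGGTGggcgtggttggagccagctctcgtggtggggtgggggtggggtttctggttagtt
RefSeq start regions were found for 22 members, and CANNTG on either strand was in 17 of them (77.3%), as in 72.3% of all 32851 start regions. TATAAA was in 5 (22.7%, against 13.6%), CCAAT in 9 (40.9%, against 37.4%) and the 10-letter MEF2 motif in none (0.110% of all).

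Among the remaining processed transcripts, Gm830 had 7.73, 2.57, 6.53 and 3.54 in KO libraries against 217 to 233 in WT libraries 1, 2 and 4, 76.3 in WT library 3 and 39.3 to 176 in AAV libraries. AC119806.1 and Gm15482 were lower as well, and Gm15482 was at 0 in all KO libraries and at 1.84 to 47.1 in the others. The lincRNAs A330102I10Rik, RP23-433F5.1, AC123679.2 and Gm5532 were lower, and Gm15704 and Gm12514 higher. Gm12514 had 21.3, 8.55, 25.0 and 11.5 in KO libraries and 0 in all other 8, at least 42.9-fold higher than the bound of 3 reads over them. AC166773.1 (sense overlapping) was lower at 0 to 5.99 against 8.12 to 25.7, and RP23-197K11.5 (sense intronic, in Osbpl10) was higher at 7.70 to 14.1 against 0 to 6.38. Of the genes now listed as coding, Gm13889 had 29.0, 60.7, 50.03 and 69.0 in KO libraries against 345 to 834 in WT and 194 to 648 in AAV libraries. Gm7879, 99.1% identical to the splicing factor gene Ppih, was at 0 in all KO libraries and at 14.6 to 34.9 in the others, and Gm12248 had at most 5.80 against 5.91 to 16.5.

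Mir133b, on chromosome 1 (20682769 to 20682887), was the only microRNA gene among the members, and its mature forms are shown as the known products of the locus, from RefSeq on GRCm38.p6, with the seed (bases 2 to 8) in capitals.
mmu-miR-133b-5p: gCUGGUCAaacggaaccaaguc
mmu-miR-133b-3p: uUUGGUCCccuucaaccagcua
The counts cover the 119 bases of the hairpin in an mRNA library and are not a measure of the mature RNA. They were 6.33, 4.25, 2.43 and 26.3 in WT, 0.966, 0, 0 and 0.884 in KO and 8.27, 6.04, 3.54 and 15.6 in AAV libraries. The KO libraries held 2 reads in all, and WT library 4 and AAV library 4 were the highest of their groups. The difference of −2.54 thus rested on few reads.

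The comparison of AAV with WT libraries was the only one that the rule did not use, although members had to lie on the same side of KO in both groups, which limits how far AAV and WT can be apart. Of the 62 members, 51 reached a count of 10 in these 8 libraries and were tested, and the 11 others were all higher in KO. By limma with Benjamini-Hochberg adjustment over 14939 genes, 1 member (Gm22641) was called between AAV and WT, while 0.951% of all genes tested were called (142 genes), 0.73% higher and 0.221% lower in AAV libraries. The shares were 0.959% of coding genes and 0.864% of genes not coding. With single libraries left out, 18 to 330 genes were called in all, so these shares are not stable. Unadjusted p under 0.05 was found for 10 of the 51 (19.6%) and for 18.2% of all genes, and all 10 were lower in AAV libraries. The median AAV minus WT difference of the 51 was −0.18 (log2), beside −0.03 over all genes tested, with 29 members below and 22 above 0. The 4 members whose AAV and WT libraries did not overlap were all lower in AAV libraries, and such a gap was found in 11.7% of all genes tested. The replicates are separate animals by their labels.

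Gm22641 had a mean normalized count of 915 over the 12 libraries. It is not in GENCODE M21 and is described by its identifier only (ENSMUSG00000093098). It had 1310.3, 2571, 2091 and 3044 in WT, 613, 288, 424 and 310.2 in AAV and 51.2, 37.6, 74.0 and 164 in KO libraries. The groups lay apart in 3 steps, with AAV libraries between the others. AAV libraries were lower than WT libraries by 2.46 ± 0.30 (SE, log2; adjusted p = 0.00971, limma), 5.5-fold, in all 4 of 4 libraries. Permuting the labels of the 4 and 4 values exactly (two-sided) gave p = 0.0286, the smallest p this design allows. Without WT library 2 and AAV library 4 the difference was −2.26 and no longer called (adjusted p = 0.0952, limma), and leaving out single libraries gave −2.70 to −2.29, called each time.

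Next to it, Gm15860 was lower in AAV than in WT libraries by 1.35 ± 0.30 (17.6 ± 3.52 against 47.3 ± 13.5, adjusted p = 0.0613), Gm14121 by 1.06 ± 0.27 (adjusted p = 0.0911) and Gm15487 by 1.23 ± 0.33 (adjusted p = 0.0992, limma), without a call. Their AAV and WT libraries did not overlap, and each had an exact permutation p of 0.0286. Gm12751 differed by −1.87 ± 0.51 (SE, log2, adjusted p = 0.108, limma) with overlapping libraries. DESeq2 on the recovered reads called these 4 and Gm22641 (adjusted p of the 4 between 0.00416 and 0.0168), among 406 genes in all. RP24-547D11.4 had an AAV minus WT difference of 1.37 ± 1.41 (SE, log2, adjusted p = 0.630, limma), with AAV library 4 at 206 and the other 3 at 3.54 or less.

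**Figure D5:**
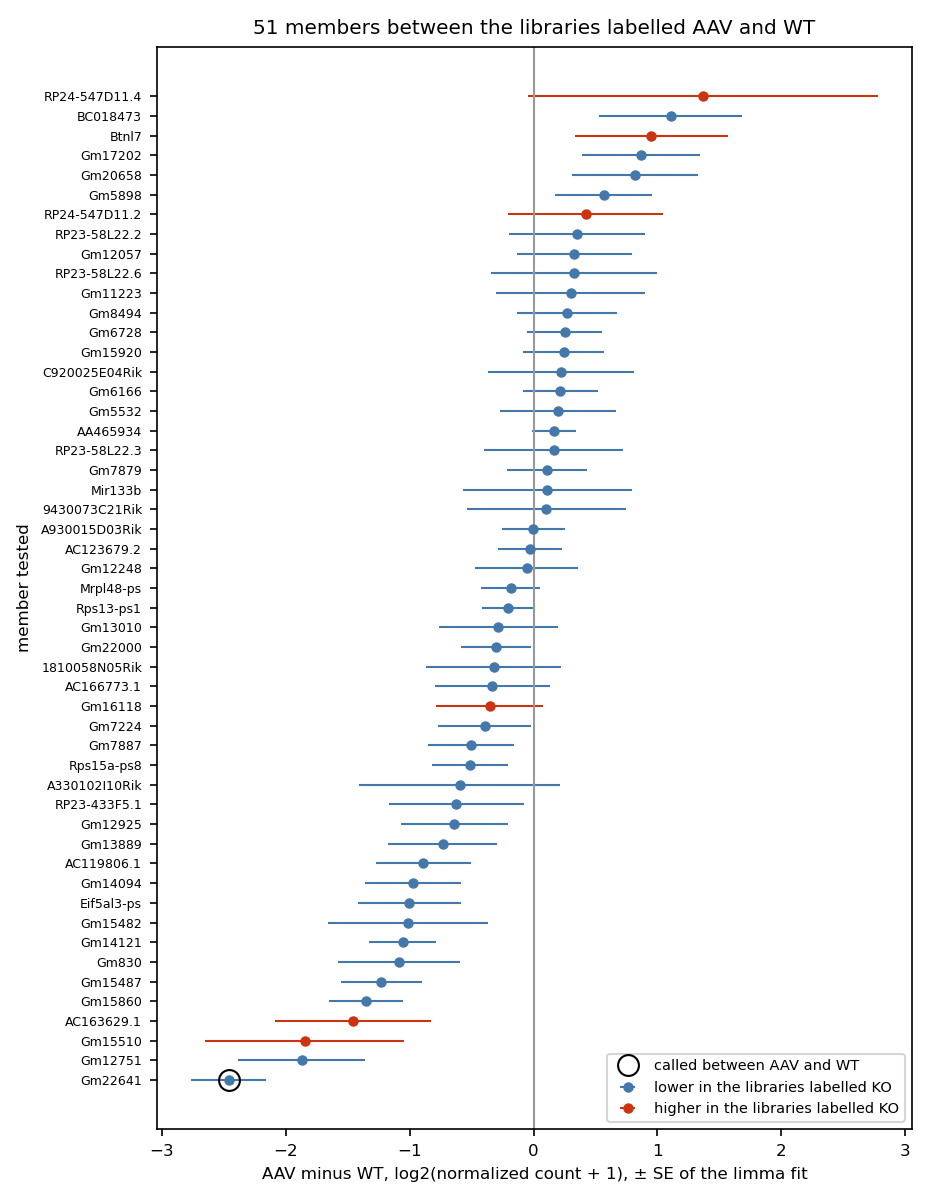
Difference of AAV and WT libraries (log2 of normalized count + 1, ± SE of the limma fit) for the 51 members tested, 4 libraries a group, in blue for members lower and in red for members higher in KO libraries. Most lie within 1 of 0, Gm22641 at −2.46 is the only one called (ring), and the widest error is that of RP24-547D11.4.

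Measured against WT alone, 61 members reached a count of 10 in WT or KO libraries and all 61 were past the call threshold in the direction of the rule, beside 13.9% of all genes (8.5% lower and 5.43% higher in KO). Against AAV libraries 59 of 61 were, beside 8.98% of all genes (3.55% lower and 5.43% higher in AAV) and 15.8% of genes not coding. As the rule used these values, the counts are a description. The median KO minus WT difference was −3.66 for the lower and 3.14 for the higher members, and the median AAV minus KO difference was 3.20 and −3.17.

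Better known noncoding RNAs were looked at from a list of 75 names, of which 35 were in the tables. None was a member, and H19, Meg3 and Rian were among the genes left out by name. Between KO and WT 9 of 35 (25.7%) were called, 5 higher and 4 lower, against 17.5% of noncoding genes and 13.9% of all genes tested. Without WT library 2, 5 were called. The lowest adjusted p were those of H19 (−3.15 ± 0.35), Meg3 (1.82 ± 0.21), Rian (1.60 ± 0.26), Mirg (1.63 ± 0.32) and 2610307P16Rik (1.17 ± 0.27, SE, log2). Xist was called lower as well (−2.94 ± 0.84, SE, log2) and parted the same KO pairs as Rps13-ps1. It had 18.4 and 23.9 in KO libraries 1 and 2 and 1.09 and 0.884 in KO libraries 3 and 4. WT libraries had at least 36.1 and AAV libraries at least 22.9, and the cause of this split was not tested. Between AAV and KO 2 of 35 (5.71%) were called, against 15.8% of noncoding genes and 8.98% of all genes tested. These were H19 and Rpph1, both higher in AAV, and 6 were called without AAV library 3. Between AAV and WT 3 of 35 (8.57%) were called, all higher in AAV, against 0.864% of noncoding genes and 0.951% of all genes tested. They were Meg3 (1.96 ± 0.21), Rian (1.41 ± 0.25) and Snhg11 (2.32 ± 0.44, SE, log2). As the list was chosen with earlier results of these data known, its shares of calls are a description. None of the 3 was called without both WT library 2 and AAV library 4, and 1 of the 35 was called without any single one of WT libraries 1, 2 and 4 and AAV libraries 1, 2 and 4. Of the skeletal fibre markers 2 of 7, Myh1 and Myh2, were lower in KO than in WT and higher in AAV than in KO libraries. Of other cell type markers, 3 of 4 macrophage markers were lower and 3 of 4 smooth muscle and pericyte markers higher in KO than in WT libraries, with summed counts of 538 to 997 against 1068 to 3798 and of 9306 to 10587 against 2428 to 8489. The endothelial marker Cdh5, 1 of 4, was higher in KO than in WT libraries. Of 3 erythroid markers 2, Hba-a1 and Hba-a2, were higher in AAV than in KO libraries, and the 3 summed to 363 to 1028 against 35.9 to 387. Of 4 testis and germ cell markers 1 (Ddx4) was in the tables, at 9.05 or less in every library. The part of these cell types in the members' values was not tested.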

How the data were processed

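Normalized read signal per gene was analysed in 12 quadriceps libraries in 3 groups of 4, taken from the sample labels. Per the labels and the methods, the authors trimmed reads (Trim Galore 0.4.1), mapped them with STAR to GRCm38, kept reads with a single location, counted them per gene (HTSeq 0.6.1), and deposited these counts divided by DESeq2 (1.16.1) size factors as a normalized signal. The authors' own deposited comparison columns (log2 fold changes, errors, test score and p-values) were not used. Strandedness of counting is not given in the sources used here. Whole reads could be recovered from 100% of the values (within 0.1 read) in 12 libraries.

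Both tables were joined by gene identifier, and KO values differed by 0 between them. The members, gene lists and tests were chosen with earlier results of these data known. As the values are normalized, limma (3.58.1, R 4.3.3) with an intensity trend on log2(value + 1) was the main test, on genes that reached 10 in 1 or more of the 8 libraries, p-values being adjusted by Benjamini and Hochberg. Calls needed an adjusted p below 0.05 and a log2 difference of 1 or more in size. The pseudocount of 1 makes differences of low genes smaller.

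Named members were the 8 widest differences and 5 highest means in each direction, those called between AAV and WT, those with a gene symbol of their own, those near the threshold, near each other or near a called coding gene, and pseudogenes with a tested source gene. Other members were named, after their values were seen, to account for all 62. Source genes were found with blastn (2.17.0+) against GENCODE M21 coding transcripts. Alternatives concerned the test (edgeR 4.0.16 and DESeq2 1.42.0 on recovered reads), scaling, pseudocount, filter, all 12 libraries in one fit, the replicate number as a block, and libraries left out. Precision is limited by 22122233 to 47379737 reads per library, and bounds from 3 reads cover counting error only. Every per-sample column was used, leaving 0.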

Additional observations from a re-analysis of the deposited data

Results flagged for a closer look

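In each group of 4 libraries the highest and lowest value were compared with the nearest other value by Dixon's ratio, taken on log2(normalized count + 1), at its 95% critical value for the 62 members, Gaa and 11 coding genes named beside them. Of 213 groups looked at, 22 held a library that stood apart. Chance would give about 1 in 20 only for continuous values without ties. Where the other libraries of a group all had no reads, a single read gave the largest possible ratio. The 22 can therefore not be weighed against that rate. The values printed are normalized counts.

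Among members at higher counts these were RP23-58L22.3 in WT library 3 (106, others 23.4 to 27.3), Gm830 in WT library 3 (76.3, others 217 to 233), Gm13010 in KO library 1 (10.6, others 21.8 to 24.8), AC166773.1 in AAV library 4 (25.7, others 9.06 to 9.65) and RP24-547D11.4 in KO library 2 (295, others 405 to 417). Among the coding genes they were Gaa in WT library 2 (14640.2, others 324 to 460), Tal2 in WT library 3 (34.9, others 119 to 135), Myh1 in KO library 4 (28864, others 58194 to 66937), Myl4 in AAV library 3 (191, others 802 to 1043) and Atp6v0c in AAV library 4 (194, others 27.6 to 38.3).

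The other 12 had values under 10. They were RP23-58L22.3 in KO library 2 (0.855, others all at 0), Gm6166 in KO library 2 (2.57, others all at 0), Gm8494 in KO library 4 (0.884, others all at 0), A330102I10Rik in KO library 3 (0, others 1.71 to 1.93), Gm7224 in AAV library 4 (9.18, others 6.89 to 7.09) and RP23-433F5.1 in KO library 1 (0.966, others all at 0). The rest were Gm15860 in KO library 4 (3.54, others 6.76 to 7.61), AL714024.1 in WT library 2 (0, others 0.812 to 0.975), AL714024.1 in AAV library 4 (2.75, others all at 0), Gm13123 in WT library 1 (0.905, others all at 0), Gm13123 in AAV library 2 (1.0068, others all at 0) and Gm15510 in AAV library 1 (1.38, others all at 0).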

How the results depend on the processing

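Between AAV and WT, 1 member (Gm22641) was called by edgeR as by limma, 5 by DESeq2, 3 with all 12 libraries in one fit, 0 without WT library 2 and AAV library 4, and 1 to 2 with single libraries left out. Over all genes this comparison gave 406 calls by DESeq2, 250 after scaling to total reads, 398 with all 12 libraries, 10 without WT library 2 and AAV library 4, and 18 to 330 with single libraries left out. Between KO and WT, 1332 genes were called without WT library 2 and AAV library 4 (1332 to 3238 with single libraries left out, the highest without WT library 3), and between AAV and KO 787 to 1966. Of the neighbours 4 to 11 were called between KO and WT with single libraries left out (4 without WT library 4), and 22 of 147 within 100 kb. Of the listed RNAs, 5 were called between KO and WT without WT library 2 and AAV library 4 (5 to 11 with single libraries left out), and 4 between AAV and KO after scaling to total reads (2 to 6). Between AAV and WT, a count added after seeing the data, 3 of them were called, 0 without WT library 2 and AAV library 4 and 1 to 3 with single libraries left out. The rule took 34 genes at a minimum of 50, 39 at a threshold of 3, 14 with WT and 3 with AAV libraries set apart, and 61 to 70 with single libraries left out. The causes were not tested. Of the settings for single genes 554 kept their call, 7 gained and 46 lost one.

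With the replicate number as a block, 1 member, 120 genes between AAV and WT, 1830 between KO and WT, 1003 between AAV and KO, 8 and 7 neighbours, 2 source genes and 9, 3 and 3 listed RNAs (the last between AAV and WT) were called. Same-numbered libraries correlated at −0.115 to 0.0246 (KO and WT), −0.181 to 0.0705 (AAV and KO) and −0.364 to 0.563 (AAV and WT). Differently numbered libraries reached −0.740 (AAV 4 and WT 3) and 0.549 (AAV 2 and WT 3). These values therefore cannot show whether the numbers pair the mice.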
